A study of Mus musculus with 11 samples.

Results

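The miR-99b/let-7e/miR-125a cluster is a run of 3 microRNA hairpins on mouse chromosome 17. Its 6 mature arms, the 5p and the 3p product of each hairpin, are mmu-miR-99b-5p, mmu-miR-99b-3p, mmu-let-7e-5p, mmu-let-7e-3p, mmu-miR-125a-5p and mmu-miR-125a-3p, written below without the species prefix. They were picked out by name from a table of 1281 mature miRNAs, of which 811 had at least 1 read. The study sequenced small RNA of liver from C57/B6 mice that lack telomerase, to find miRNAs that depend on the tumour suppressor p53. The libraries were 6 labelled G4 p53-/- (numbers 6, 7, 8, 10, 11 and 12), from mice with short telomeres that lack p53, and 5 labelled G4 p53+/+ (numbers 1 to 5), from mice with short telomeres and intact p53. Both genotypes carry the telomerase knockout, no mouse was treated, and no age is stated. Whether the libraries stand for separate mice is not stated, so their spread may be partly technical. The cluster was chosen with the genotype values of its arms known, so no p-value is printed for its levels in the 2 genotypes. Calls and intervals from the fits across all miRNAs are given for its arms as a description only.

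MicroRNAs are short RNAs that guide Argonaute proteins to messenger RNAs and repress them, mostly through the seed, bases 2 to 8 of the mature strand. The hairpins of this cluster belong to old families that are often found side by side in animal genomes: miR-99/100, known to repress mTOR signalling; let-7, which restrains growth and is blocked from maturing by the LIN28 proteins; and miR-125, the relatives of lin-4 of the nematode Caenorhabditis elegans. Mouse carries related clusters, which hold miR-99a, let-7c-1 and miR-125b-2 on chromosome 16 and miR-100, let-7a-2 and miR-125b-1 on chromosome 9. A cluster transcribed as 1 primary transcript can still give its mature arms in unequal amounts, because each hairpin is cut out and each arm kept or lost separately.

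On GRCm38 the 3 hairpins lie within 692 bases on the plus strand, inside Spaca6 (chr17:17827158-17843009, plus strand), a gene known for a sperm membrane protein. Mir99b (chr17:17830188-17830257) and Mirlet7e (chr17:17830352-17830444) overlap an exon of none of the 16 Spaca6 transcripts of GENCODE M21, and so are intronic. Mir125a (chr17:17830812-17830879) overlaps an exon of 1 of those 16 transcripts. The gaps between the hairpins are 94 and 367 bases. GENCODE also lists a miRNA gene on the minus strand opposite Mirlet7e, named Gm25927. The sources used here do not say whether counting used strand, so reads of the 2 strands cannot be told apart at that place.

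The mature sequences of the 6 arms, from RefSeq on GRCm38.p6, are shown because their seeds decide which other miRNAs each arm can be read with. They run 5′ to 3′, with the seed in capitals.
miR-99b-5p: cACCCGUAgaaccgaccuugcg
miR-99b-3p: cAAGCUCGugucuguggguccg
let-7e-5p: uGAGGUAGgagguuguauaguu
let-7e-3p: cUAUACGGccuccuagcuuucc
miR-125a-5p: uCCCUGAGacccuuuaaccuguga
miR-125a-3p: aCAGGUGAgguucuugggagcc

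The nearest relatives of the 5p arms are shown for comparison, again with the seed in capitals. Their counts bear on how well the members can be told apart.
miR-99a-5p: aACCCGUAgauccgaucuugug
miR-100-5p: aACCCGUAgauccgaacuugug
let-7a-5p: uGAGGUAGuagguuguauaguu
let-7c-5p: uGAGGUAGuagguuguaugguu
miR-125b-5p: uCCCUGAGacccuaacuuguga
Counted from 1 at the 5′ end, and with the relative's base first, let-7e-5p differed from let-7a-5p by the single substitution U9G, just past the seed. It differed from let-7c-5p by U9G and G19A. miR-99b-5p differed from miR-99a-5p by A1C, U11A, U16C and U21C. miR-99b-3p shared its seed with miR-99a-3p, while let-7e-3p and miR-125a-3p shared theirs with no other name in the table that had a RefSeq sequence.

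The hairpins show where the arms sit, with both mature arms in capitals.
Mirlet7e: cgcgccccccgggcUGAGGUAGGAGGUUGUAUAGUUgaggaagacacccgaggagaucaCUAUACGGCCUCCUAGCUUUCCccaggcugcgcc
Mir125a: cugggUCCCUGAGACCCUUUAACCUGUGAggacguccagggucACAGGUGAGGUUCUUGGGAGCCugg

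With each miRNA name counted once, total counts ran from 2202415 to 6682492 in p53-/- libraries and from 1905609 to 6448820 in p53+/+ libraries. The shallowest were p53-/- library 11 and p53+/+ libraries 1 and 2. Levels are given as normalised CPM, which are counts scaled to a common library size after edgeR's TMM scaling between libraries. miR-34a-5p, a direct p53 target that checks the genotype labels, was at 3.90 to 12.4 normalised CPM in p53-/- livers and at 42.4 to 120.0 in p53+/+ livers. The 4 hepatocyte markers (both arms of miR-122, miR-192-5p and miR-194-5p) summed to between 468813 and 811813 normalised CPM in p53-/- livers and between 488141 and 673925 in p53+/+ livers, so these markers took a large part of the reads in both genotypes.

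The 5p arms carried nearly all reads of the cluster. miR-99b-5p was the most abundant member and ranked 34 of all names by mean level, followed by miR-125a-5p at rank 44 and let-7e-5p at rank 63. The 3p arms ranked 147 (miR-99b-3p), 237 (let-7e-3p) and 284 (miR-125a-3p). The 6 arms together made up 0.499 ± 0.0613% of all counts in p53-/- libraries (SD, n = 6) and 0.385 ± 0.0565% in p53+/+ libraries (SD, n = 5). All 6 arms passed the filter on low counts, and the lowest count of any arm in any library was 11. Read counts of different sequences can be captured unequally, so the order is one of reads and not of molecules.

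Each of the 6 arms had a higher mean in p53-/- livers than in p53+/+ livers, and miR-99b-3p was the only one of the 6 whose genotypes did not overlap. None of the 6 arms was called over the 388 miRNAs tested with edgeR's quasi-likelihood test at an adjusted p under 0.05. Across all miRNAs 0.258% were called, which is miR-34a-5p alone. At an unadjusted p under 0.05 the test marked 4 of the 6 arms, all higher, against 8.25% of all miRNAs higher and 17.3% in either direction. DESeq2 called 1 of the 6, miR-99b-3p, against 0.779% of all miRNAs called higher and 1.82% called in either direction. Log2 fold changes, given as p53-/- over p53+/+, were above 0 for 6 of 6 arms with a median of 0.57, against 49% of all tested miRNAs and a median of -0.01. The count was 5 of 6 without p53+/+ library 2 or without p53-/- library 8, and 4 of 6 with only the p53-/- libraries of HA numbers above 500, a number in the library descriptions. These counts use the contrast that led to the choice of the cluster and are a description only. In bulk tissue, fewer cells of a type cannot be told apart from less RNA per cell.

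**Figure D1:**
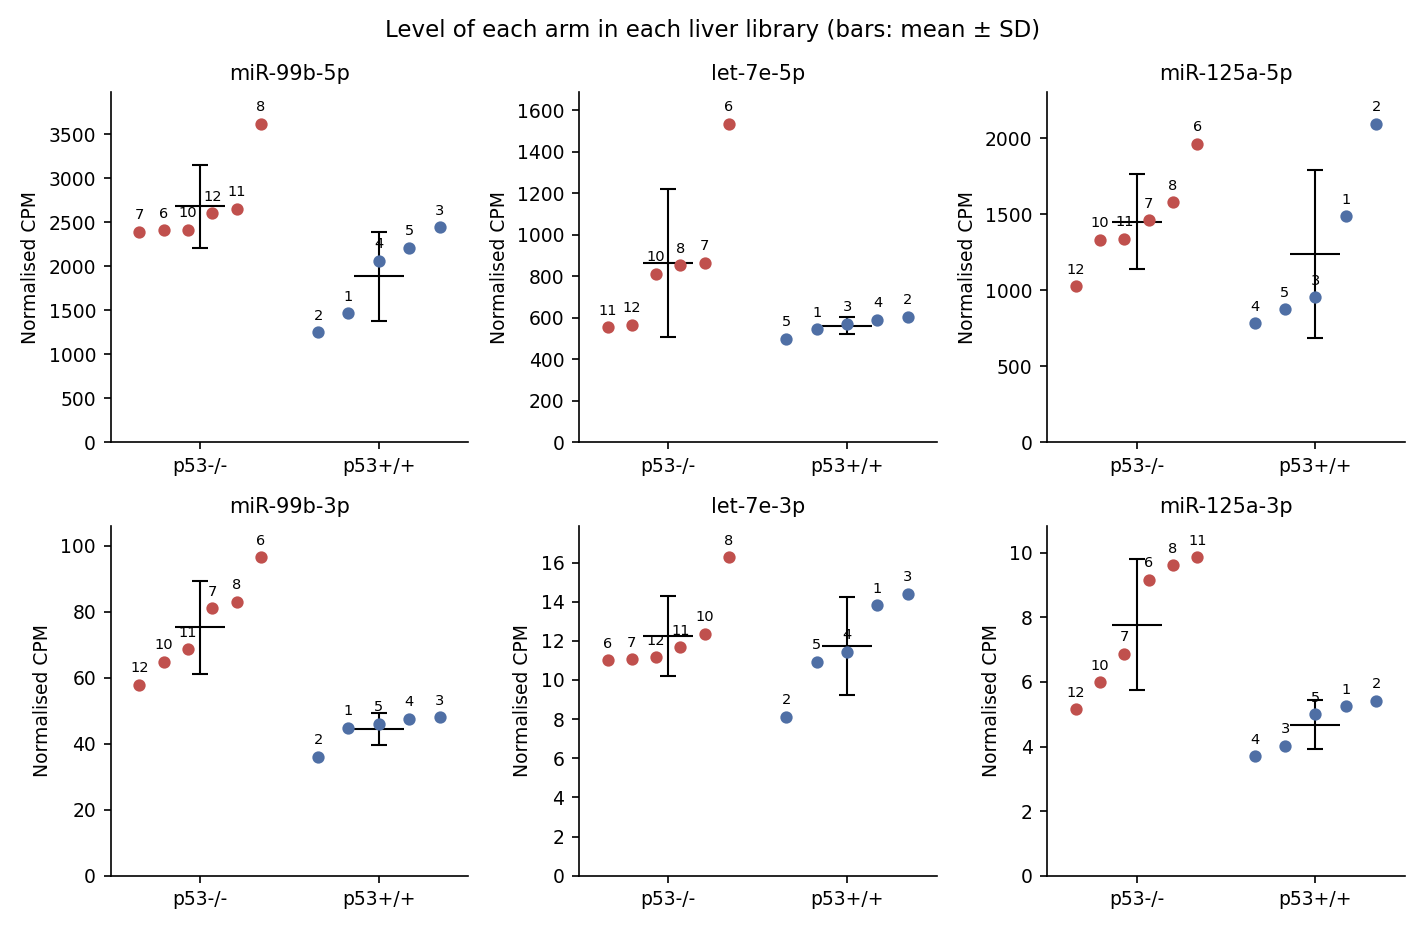
Normalised CPM of each arm in each library, with p53-/- libraries at the left (red) and p53+/+ libraries at the right (blue); points carry library numbers, are spread sideways by value for legibility, and bars give mean ± SD. The genotypes are apart for miR-99b-3p, p53-/- library 6 is far above the rest for let-7e-5p at 1534, and p53+/+ library 2 is the highest for miR-125a-5p at 2094.

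Mir99b gave the most reads of the 3 hairpins. Its main product, miR-99b-5p, of the family known to target mTOR, had a lowest, median and highest level of 2394, 2509 and 3618 normalised CPM in p53-/- livers. In p53+/+ livers 1 to 5 it stood at 1464, 1247, 2441, 2065 and 2208. The p53-/- libraries were close together except library 8, the highest, and 3 of the 6 lay inside the p53+/+ range. The low p53+/+ values were those of libraries 1 and 2. The mean was 2682 ± 472 in p53-/- livers (SD, n = 6) and 1885 ± 508 in p53+/+ livers (SD, n = 5). On the log2 scale the fold change came to 0.51, with an SE of 0.19 and a 95% interval of 0.09 to 0.93. Without p53+/+ libraries 1 and 2 it was 0.30.

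The passenger arm miR-99b-3p, which shares a seed with miR-99a-3p, had a lowest, median and highest level of 57.9, 74.8 and 96.5 normalised CPM in p53-/- livers. In p53+/+ livers 1 to 5 it stood at 44.8, 36.1, 48.1, 47.6 and 46.1. The lowest p53-/- library, number 12, was above the highest p53+/+ library, number 3. Of all tested miRNAs 1.29% had p53-/- ranges wholly above the p53+/+ range. The log2 fold change came to 0.75, with an SE of 0.17 and a 95% interval of 0.38 to 1.13, and 23 of the 388 miRNAs had a value at least as high. The values rested on 188 to 542 reads in p53-/- libraries and on 80 to 287 reads in p53+/+ libraries.

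let-7e-5p, the let-7 member of the cluster, was level in one genotype and uneven in the other. Its lowest, median and highest levels in p53-/- livers were 554, 832 and 1534 normalised CPM. In p53+/+ livers 1 to 5 it stood at 544, 605, 569, 589 and 499. The p53-/- libraries 11 and 12, at 554 and 566, lay inside the p53+/+ range, while the other 4 lay above it. The mean was 864 ± 357 in p53-/- livers (SD, n = 6) and 561 ± 41.8 in p53+/+ livers (SD, n = 5), so the SD was 41.3% of the mean in p53-/- livers and 7.44% in p53+/+ livers. The log2 fold change came to 0.62, with an SE of 0.24 and a 95% interval of 0.11 to 1.13 and 0.38 without p53-/- library 6.

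The other arm of that hairpin, let-7e-3p, had about the same mean in both genotypes. It had a lowest, median and highest level of 11.0, 11.4 and 16.3 normalised CPM in p53-/- livers, while p53+/+ livers 1 to 5 held 13.8, 8.12, 14.4, 11.4 and 10.9. The ranges overlapped in full apart from p53-/- library 8, and 5 of the 6 p53-/- libraries lay inside the p53+/+ range. The log2 fold change came to 0.06, with an SE of 0.21 and a 95% interval of -0.39 to 0.50, on 32 to 88 reads a library in p53-/- livers and 18 to 86 in p53+/+ livers. It was below 0 without p53+/+ library 2 (-0.07) and without p53-/- library 8 (-0.08).

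miR-125a-5p, the lin-4 relative, had the widest spread of the cluster in p53+/+ livers. Its lowest, median and highest levels in p53-/- livers were 1025, 1400 and 1964 normalised CPM. In p53+/+ livers 1 to 5 it stood at 1485, 2094, 953, 781 and 875. The p53+/+ libraries 1 and 2 were above most p53-/- libraries, and the other 3 were below all of them. The log2 fold change came to 0.23, with an SE of 0.26 and a 95% interval of -0.32 to 0.78, and without p53+/+ libraries 1 and 2 it was 0.79 (SE 0.22). Those are also the libraries in which miR-99b-5p was lowest.

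Its other arm, miR-125a-3p, was the scarcest member. The lowest, median and highest levels in p53-/- livers were 5.16, 8.02 and 9.86 normalised CPM, and p53+/+ livers 1 to 5 held 5.25, 5.42, 4.02, 3.70 and 4.99. The p53-/- library 12 alone lay inside the p53+/+ range. The log2 fold change came to 0.74, with an SE of 0.25 and a 95% interval of 0.20 to 1.28, from 27 to 52 reads a library in p53-/- livers and 11 to 24 in p53+/+ livers.

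The p53-/- libraries also differed among themselves by the HA number in their descriptions, whose meaning is not given. For miR-99b-3p, libraries 6, 7 and 8, with HA numbers under 500, stood between 81.0 and 96.5 normalised CPM. Libraries 10, 11 and 12, with HA numbers above 500 like those of all p53+/+ libraries, stood between 57.9 and 68.7. For let-7e-5p the corresponding ranges were 853 to 1534 and 554 to 812, and for miR-125a-5p 1461 to 1964 and 1025 to 1339. These ranges did not overlap for any of these arms, whereas those of miR-99b-5p did (2394 to 3618 and 2415 to 2653). Those of let-7e-3p (11.0 to 16.3 and 11.2 to 12.4) and miR-125a-3p (6.88 to 9.61 and 5.16 to 9.86) also overlapped. How many of all tested miRNAs split in the same way was not counted, so the split cannot be called particular to these arms. With only the p53-/- libraries of the higher HA numbers, the log2 fold change of miR-99b-3p was 0.49, that of let-7e-5p 0.17 and that of miR-125a-5p -0.02. In the same setting let-7e-3p was at -0.04, miR-99b-5p at 0.42 and miR-125a-3p at 0.56. The part of the HA number in the genotype differences was not tested further.

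The mix of the 3 main arms, which needs no scaling between libraries, shifted from library to library. miR-99b-5p made up 54.1 ± 7.80% of their reads in p53-/- libraries (SD, n = 6) and 51.4 ± 13.8% in p53+/+ libraries (SD, n = 5). let-7e-5p made up 17.0 ± 5.03% in p53-/- libraries and 15.3 ± 1.25% in p53+/+ libraries, and miR-125a-5p 28.9 ± 3.21% in p53-/- libraries and 33.4 ± 13.7% in p53+/+ libraries. Each difference between genotypes was smaller than the larger of the 2 SDs. Within p53+/+ livers, libraries 1 and 2 held 1.01 and 1.68 reads of miR-125a-5p per read of miR-99b-5p, and libraries 3, 4 and 5 held 0.390, 0.378 and 0.396. In p53-/- livers that ratio ran from 0.394 in library 12 to 0.816 in library 6.

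**Figure D2:**
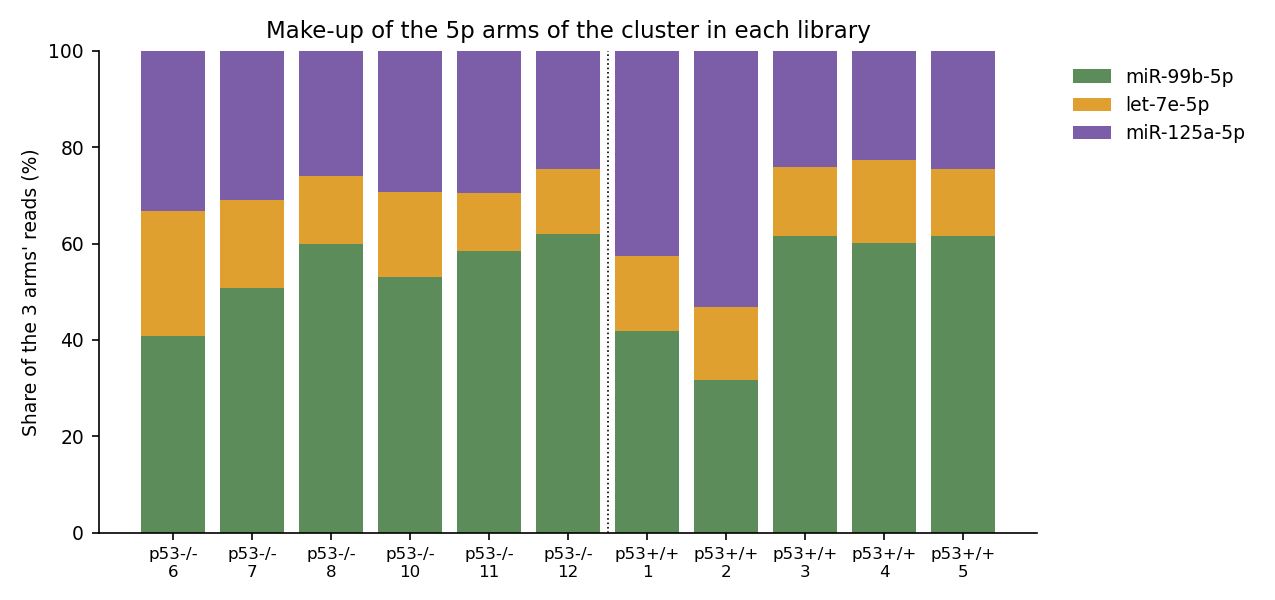
Share of each 5p arm in the summed reads of the 3 arms, as percent, for the 6 p53-/- libraries at the left of the dotted line and the 5 p53+/+ libraries at its right. miR-125a-5p takes 42.5% and 53.1% in p53+/+ libraries 1 and 2, and let-7e-5p takes 26.0% in p53-/- library 6.

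The 3p arm was a small part of the reads of each hairpin. The 3p share of the reads from Mir99b was 2.78 ± 0.655% in p53-/- livers (SD, n = 6) and 2.40 ± 0.465% in p53+/+ livers (SD, n = 5). For Mirlet7e it was 1.56 ± 0.510% in p53-/- livers and 2.07 ± 0.478% in p53+/+ livers. For Mir125a it was 0.536 ± 0.111% in p53-/- livers and 0.414 ± 0.117% in p53+/+ livers. Each difference between genotypes was about 1 SD between libraries or less, and the ranges overlapped for all 3 hairpins.

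The shares also varied between libraries, and the library with the highest 3p share of Mir99b is given here as the extreme one. In p53-/- library 6 the 3p share was 3.85% for Mir99b (95% Wilson interval 3.51 to 4.23%) but 0.712% for Mirlet7e (0.538 to 0.943%). In p53-/- library 12 the shares were 2.18% (1.98 to 2.39%) and 1.93% (1.56 to 2.40%). Library 6 also had the lowest 3p share of Mirlet7e in the series. PCR copies cannot be told from separate molecules here, so these intervals hold counting error alone.

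**Figure D3:**
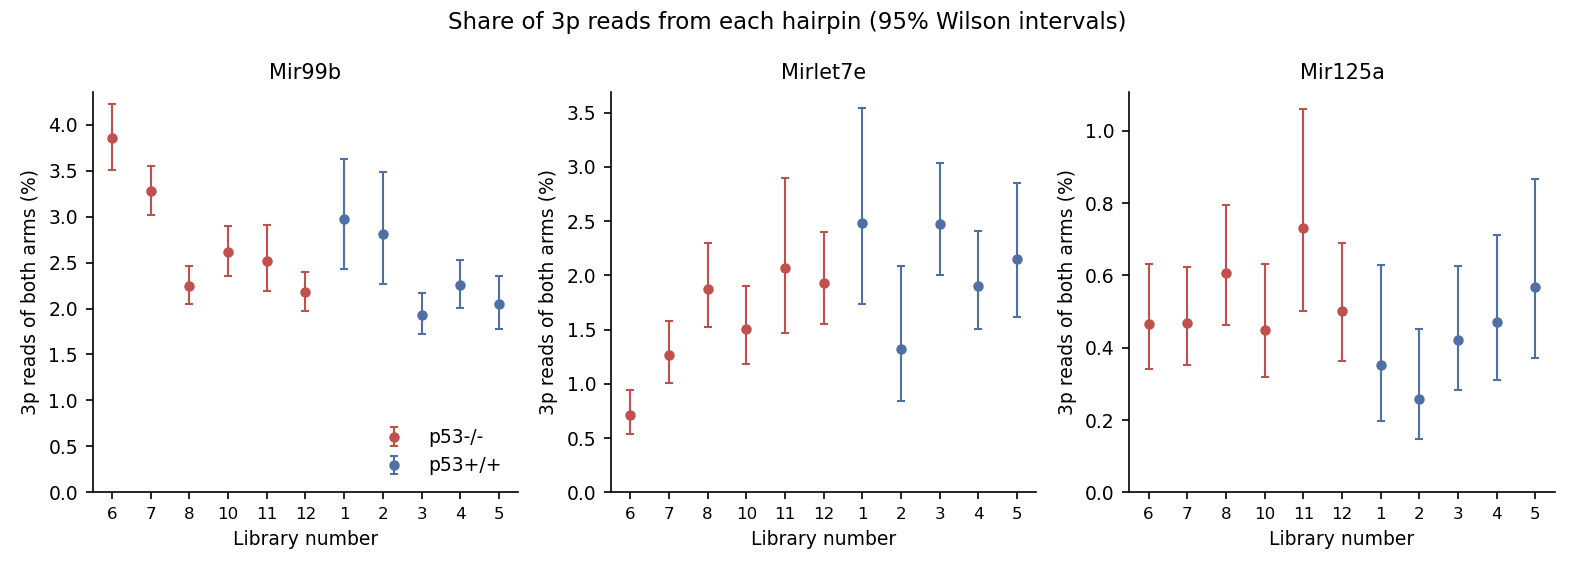
Percent of reads from each hairpin that were the 3p arm, by library, with p53-/- libraries (red) left of p53+/+ libraries (blue) and 95% Wilson intervals. Mir99b lies between 1.93 and 3.85%, Mirlet7e between 0.712 and 2.48% and Mir125a between 0.258 and 0.731%.

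Whether the arms varied together was tested after the mean of each genotype was removed, so that the genotype difference did not enter. The test used log2 normalised CPM of all 11 libraries and exact permutation of libraries within genotypes, two-sided, for 6 pairs of arms. None of the 6 pairs passed at an adjusted p of 0.05 by Pearson's r. The 5p and 3p arms of Mir125a gave r = 0.63 (exact permutation p = 0.0172, adjusted 0.0653) and Spearman's rho = 0.68 (exact permutation p = 0.00787, adjusted 0.0472), and r = 0.61 without the 2 libraries farthest from the median of the 5p arm. Its r ran from 0.55 to 0.73 with each library left out. let-7e-5p and miR-125a-5p gave r = 0.50 (exact permutation p = 0.0218, adjusted 0.0653) and rho = 0.50 (exact permutation p = 0.114, adjusted 0.229), and r = 0.46 without the farthest libraries, p53-/- 6 and 11. Within the 6 p53-/- libraries alone this pair gave r = 0.89 (exact permutation p = 0.0319, adjusted 0.192), which did not pass.

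The most abundant arm, miR-99b-5p, gave negative values against the other main arms. Against miR-125a-5p it gave r = -0.66 (exact permutation p = 0.0757, adjusted 0.151) and rho = -0.58 (exact permutation p = 0.112, adjusted 0.229), and r = -0.68 without p53+/+ library 2 and p53-/- library 8. The negative value rested on p53+/+ libraries 1 and 2, without which r was 0.14. Against let-7e-5p it gave r = -0.14 (exact permutation p = 0.549, adjusted 0.659) and rho = -0.32 (exact permutation p = 0.338, adjusted 0.338), and r = -0.18 without the same 2 farthest libraries. With total-count scaling in place of TMM this r was -0.58 (adjusted p = 0.139, exact permutation).

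With TMM scaling and all libraries, the arms of Mir125a passed by rho but not by r, and those of the other hairpins by neither. miR-99b-5p and miR-99b-3p gave r = 0.41 (exact permutation p = 0.184, adjusted 0.276) and rho = 0.33 (exact permutation p = 0.311, adjusted 0.338), but r = -0.04 without the 2 farthest libraries. let-7e-5p and let-7e-3p gave r = -0.07 (exact permutation p = 0.789, adjusted 0.789) and rho = -0.35 (exact permutation p = 0.309, adjusted 0.338), r = 0.12 without p53-/- libraries 6 and 11, and r = -0.43 with total-count scaling (adjusted p = 0.233, exact permutation). Levels within a library share its scaling and depth, so r values carry that too.

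**Figure D4:**
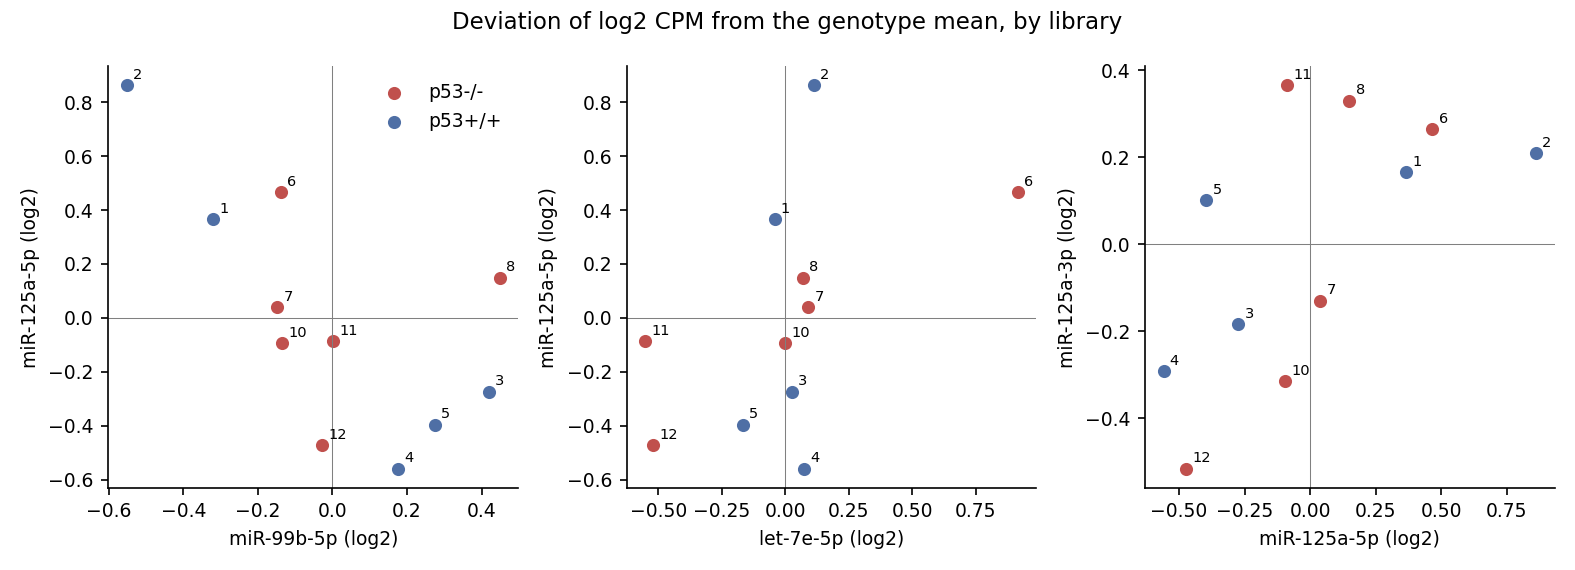
Deviation of log2 normalised CPM from the genotype mean in 11 libraries (p53-/- red, p53+/+ blue, labelled by library number) for 3 pairs of arms. In the left panel p53+/+ libraries 1 and 2 have the lowest miR-99b-5p and are among the 3 highest for miR-125a-5p, with p53-/- library 6; in the right panel the 2 arms of Mir125a mostly move together, with r = 0.63.

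The miRNAs whose deviations were most like those of a main arm lay outside the cluster, by Pearson's r over the 11 libraries, given as a description. For miR-99b-5p they were miR-1839-5p (r = 0.92), miR-140-3p (0.88), miR-103-3p (0.87), miR-148b-3p (0.86) and miR-199a-5p (0.86). For let-7e-5p they were miR-30b-5p (0.88), miR-128-3p (0.84, listed for 2 hairpins with unequal counts), let-7a-5p (0.82), miR-181a-1-3p (0.78) and miR-592-5p (0.77). For miR-125a-5p they were let-7a-1-3p and let-7c-2-3p, whose counts were equal in every library (0.87 each), miR-142-3p (0.85), miR-29a-3p (0.84) and miR-26b-5p (0.83). Arms of the cluster were left out of these lists and were placed separately among all 387 other tested miRNAs. The highest-placed arm of the cluster beside miR-99b-5p was let-7e-3p, at place 39 of 387, and beside let-7e-5p it was miR-99b-3p, at place 14 of 387. Beside miR-125a-5p it was miR-125a-3p, at place 32 of 387.

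The 3 main arms were set against the other miRNAs with their seeds. miR-99b-5p made up 18.2 ± 3.41% of the reads with its seed in p53-/- livers (SD, n = 6) and 12.9 ± 2.56% in p53+/+ livers (SD, n = 5), the rest being miR-99a-5p and miR-100-5p. let-7e-5p made up 0.801 ± 0.216% of the let-7 family in p53-/- livers and 0.543 ± 0.0698% in p53+/+ livers. miR-125a-5p made up 32.9 ± 7.53% in p53-/- livers and 28.1 ± 7.75% in p53+/+ livers, beside miR-125b-5p and miR-351-5p. The ranges of these shares overlapped between genotypes for each of the 3 arms.

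The summed levels of the seed families of the 3 5p arms were nearly the same in both genotypes; the families of the 3p arms were not summed. Reads with the seed of miR-99b-5p summed to 15034 ± 2946 normalised CPM in p53-/- livers and 14946 ± 4545 in p53+/+ livers, a log2 ratio of means of 0.01. For the let-7 family the sums were 105104 ± 15147 in p53-/- livers and 104087 ± 8560 in p53+/+ livers (log2 ratio 0.01). For the miR-125 family they were 4422 ± 260 in p53-/- livers and 4309 ± 1048 in p53+/+ livers (log2 ratio 0.04). Each of these differences was below the SD between libraries in both genotypes. The members' own log2 fold changes were 0.51, 0.62 and 0.23. With the member left out of its family, the log2 ratios of the sums were -0.08, 0.01 and -0.05, in the same order. As let-7e-5p made up 0.801% of its family in p53-/- livers and 0.543% in p53+/+ livers, its own change could not show in the let-7 sum.

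let-7e-5p stood at 4.87 to 8.27 reads per 100 reads of let-7a-5p in p53-/- libraries and at 3.61 to 4.87 in p53+/+ libraries. The sources used here do not state how reads with a mismatch were counted, and the part of let-7a-5p reads in these values was not tested. let-7a-5p itself had a log2 fold change of 0.13 (SE 0.18).

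The paralogous clusters were measured in the same fit. Of their 11 arms 8 passed the filter, and 0 were called by edgeR (adjusted p from 0.174 to 0.996) or by DESeq2, with 1 at an unadjusted p under 0.05. Values were above 0 for 4 and below 0 for 4, with a median log2 fold change of -0.03. The 5p arms were at -0.10 (miR-99a-5p), 0.00 (miR-100-5p), 0.11 (let-7c-5p), 0.13 (let-7a-5p) and -0.05 (miR-125b-5p), and the last 3 can come from more than 1 hairpin. miR-99a-3p, which has the seed of miR-99b-3p, stood between 1.85 and 4.75 normalised CPM in p53-/- livers and between 5.03 and 7.22 in p53+/+ livers. Its ranges did not overlap, as for 1.03% of miRNAs lower in p53-/- livers, and its log2 fold change was -0.77 (SE 0.26, adjusted p = 0.174 in edgeR), from 10 to 33 reads a library. The difference between miR-99b-3p and miR-99a-3p was not tested.

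**Figure D5:**
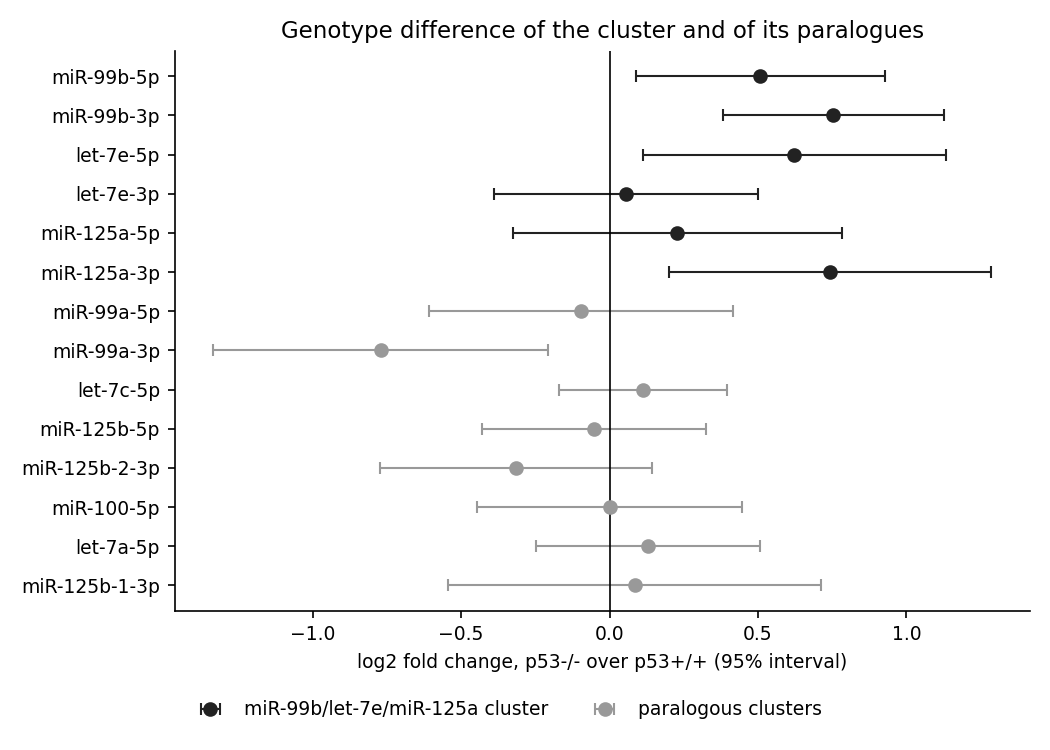
Log2 fold change of p53-/- over p53+/+ with 95% intervals from the edgeR fit, for the 6 arms of the cluster (black) and 8 arms of the paralogous clusters (grey). The cluster's arms lie between 0.06 and 0.75, and the paralogues between -0.77 and 0.13.

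Levels of other cell types beside these values were as follows, as sums over each marker list. Leukocyte markers (miR-223-3p, miR-142-3p, miR-142-5p, miR-150-5p and miR-155-5p) summed to 142 to 216 normalised CPM in p53-/- livers and 103 to 161 in p53+/+ livers, with 4 of 5 above 0 in log2 fold change. Endothelial markers (both arms of miR-126) summed to 5772 to 10477 in p53-/- livers and 6012 to 11013 in p53+/+ livers. Mesenchymal markers summed to 5603 to 6627 in p53-/- livers and 4840 to 8815 in p53+/+ livers, and epithelial markers to 661 to 2223 in p53-/- livers and 810 to 2745 in p53+/+ livers. Erythroid markers summed to 589 to 1329 in p53-/- livers and 525 to 1391 in p53+/+ livers, and pancreas markers to 6.75 to 27.5 in p53-/- livers and 2.86 to 410.2 in p53+/+ livers. Log2 fold changes were above 0 for 0 of 2 endothelial, 1 of 5 mesenchymal, 0 of 5 epithelial, 2 of 3 erythroid, 2 of 4 hepatocyte and 0 of the 2 tested pancreas markers. Of the 26 tested markers edgeR called 0 at an adjusted p under 0.05, and DESeq2 called 0. At an unadjusted p under 0.05 edgeR marked 8 of the 26, in either direction, against 17.3% of all miRNAs, so overlapping sums do not show that each marker was unchanged. No marker was at 0 in every library. Their part in the levels of the cluster was not tested.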

How the data were processed

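Small RNA from liver was sequenced in 6 p53-/- and 5 p53+/+ libraries, all on lane 4 per the labels. The authors deposited raw read counts per mature miRNA and hairpin, and CPM that sum to the same total over all 1418 entries of a library, repeated names included. The submitters' processing notes name the build GRCm38 and the tool limma, with no role. The trimmer, aligner and counter used are not stated. Values in the sample tables and the series tables were identical (0 differing). Names listed for several hairpins were counted once, with the highest count, so depths here are below those the deposited CPM rest on; each member had 1 entry, 6 in all.

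edgeR 4.0.16 in R 4.3.3 was run across all miRNAs (TMM, filterByExpr, quasi-likelihood F-test, Benjamini-Hochberg over 388 miRNAs, threshold 0.05), with DESeq2 1.42.0 as an alternative; the fit and the permutation test were tested on simulated data. Log2 CPM used a prior count of 2. Permutation tests enumerated all 86400 orders within genotypes. Seeds came from RefSeq (1029 of 1281 names matched). Named miRNAs were the members, the paralogous arms, seed relatives, markers, miR-34a-5p and the 5 likest miRNAs per main arm. The members and lists were chosen with earlier results of these data known. Replicate numbers run across genotypes and pair no libraries. A count of 3 was worth 0.449 to 1.57 CPM, depending on the library.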

Additional observations from a re-analysis of the deposited data

Results flagged for a closer look

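Among 38 sets of values (the arms, arm shares, ratios and family shares, each within a genotype), 6 held 1 library far from the others by Dixon's criterion, where chance alone gives about 1 in 20; the sets overlap in the reads they use. In p53-/- library 8 miR-99b-5p was at 3618 normalised CPM, against 2394 to 2653 in the other p53-/- libraries, and let-7e-3p was at 16.3, against 11.0 to 12.4. In p53-/- library 6 let-7e-5p was at 1534 normalised CPM, against 554 to 865 in the other p53-/- libraries. The same library held 0.637 reads of let-7e-5p per read of miR-99b-5p, against 0.209 to 0.361, and let-7e-5p made up 1.21% of its seed family there, against 0.602 to 0.814%. In p53+/+ library 2 miR-99b-3p was at 36.1 normalised CPM, against 44.8 to 48.1 in the other p53+/+ libraries.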

How the results depend on the processing

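edgeR called 1 miRNA in every alternative run with it, including each library left out, and no arm of the cluster, and DESeq2 called 7, among them miR-99b-3p. Of 114 alternative log2 fold changes of the 6 arms, 111 stayed within 1 SD between libraries. The other 3 were miR-99b-3p at 0.49 and let-7e-5p at 0.17, with only the p53-/- libraries of HA numbers above 500, and miR-125a-5p at 0.79 without p53+/+ libraries 1 and 2; fewer libraries entered each, and the cause was not tested further. With a library left out, log2 fold changes ran from 0.67 to 0.81 for miR-99b-3p, 0.36 to 0.57 for miR-99b-5p, 0.38 to 0.77 for let-7e-5p, 0.63 to 0.80 for miR-125a-3p, 0.07 to 0.48 for miR-125a-5p and -0.08 to 0.12 for let-7e-3p. The arms of Mir125a passed at an adjusted p of 0.05 by Spearman's rho (0.68), with RLE scaling (r = 0.68) and with total-count scaling (r = 0.72), and r ran from 0.55 to 0.73 with a library left out, passing without p53-/- library 11. With total-count scaling miR-99b-5p and let-7e-5p gave r = -0.58 and the arms of let-7e r = -0.43, neither passing. let-7e-5p and miR-125a-5p passed with RLE scaling (r = 0.55) and total-count scaling (r = 0.54). No paired analysis was possible because the genotypes share no replicate number. The 3p arms of let-7e and miR-125a had under 100 reads a library. The co-variation without p53+/+ libraries 1 and 2 was added after seeing the data.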
